A study of Mus musculus with 4 samples.

Results

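The genes described here are 33 genes commonly used to mark astrocytes, the star-shaped glial cells that surround synapses and cover blood vessels with their end-feet. They were found by a fixed list of symbols for that cell type. The list was chosen with earlier results of these data known. Shares of its genes set beside those of all genes are therefore descriptions only. All 33 of the 33 listed symbols were measured, out of 19938 genes, each by 1 probe set that carried its symbol alone. Of these, 32 passed a filter on low values, a mean over the 4 arrays of at least 6.59 log2, which is the 40th percentile of genes. Hapln1 did not pass and was described but not tested.

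The samples were hypothalami of male CDF1 mice (BALB/c by DBA/2), 10 to 11 weeks old, on a standard diet and killed 20 days after a subcutaneous injection in the flank under anaesthesia. Control mice received 0.2 ml of Hanks' balanced salt solution, and tumour-bearing mice received 500000 (0.5M), 1000000 (1M) or 2000000 (2M) cells of C26, a mouse colon adenocarcinoma line that causes wasting. The control array held pooled RNA of 4 animals, the 0.5M array that of 4 and the 1M array that of 3, and the 2M array, by its source label, RNA of 1 animal. The title of that sample calls it pooled, and the labels do not settle which holds. Each group was therefore 1 array without a replicate. It is called the 2M animal here after the source label. A difference of 1 array from another had no replicate check.

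Astrocytes take up glutamate and potassium released by neurons, move water and metabolites between blood and tissue, couple to each other through gap junctions and secrete matrix and signalling proteins. When tissue is inflamed or injured they enter reactive states, of which an increase of the intermediate filament gene Gfap is the classical sign. In the hypothalamus they surround the neurons that control feeding and are a main source of angiotensinogen in the brain. Several of the genes are not exclusive to astrocytes. Cst3, for example, is also abundant in microglia and S100b is also present in oligodendrocytes. All values are from whole tissue, in which fewer cells of a type and less RNA per cell cannot be told apart.

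As a group the astrocyte genes lay close to control, and 0 of the 32 tested passed limma, a linear model with moderated variances, either for tumour-bearing against control arrays or for a trend with the number of injected cells (threshold 0.05, Benjamini-Hochberg adjustment over 11963 genes). Within the group the genes lay on both sides of control, and the middle of the group was spread about as genes in general. The quartiles of the mean difference were -0.13 and 0.08 log2, beside -0.08 and 0.14 over all genes. The extremes at 2M were not alike. There 9.09% of members were at least 0.5 log2 below control and 3.03% at least 0.5 log2 above, beside 1.23% and 1.78% of all genes. Agt, Itih3, Htra1, Fgfr3 and Cbs were 0.32 to 0.39 log2 higher on average in the tumour-bearing arrays than in control. Aqp4, Slc7a10 and Slc14a1, which encode membrane transport proteins, were 0.36 to 0.49 log2 lower. Slc1a2, Slc1a3, Cst3 and Ndrg2, whose products take up glutamate, inhibit proteases and mark differentiated astrocytes, stayed within 0.08 log2 of control in each array. Gfap did not differ in a common direction.

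For 27 of the 33 genes a RefSeq promoter window of build GRCm38.p6 was at hand, and the 250 bases before the start are printed for 5 of them, picked after the values were seen so that genes from both sides of control can be read beside their values. Agt, Itih3 and Htra1 stood above control, and Slc7a10 and Ntsr2 stood below it. Capitals mark TTCNNNGAA, the core motif of STAT transcription factors, which reads the same on both strands.
Agt, chr8:124569707-124569956, minus strand: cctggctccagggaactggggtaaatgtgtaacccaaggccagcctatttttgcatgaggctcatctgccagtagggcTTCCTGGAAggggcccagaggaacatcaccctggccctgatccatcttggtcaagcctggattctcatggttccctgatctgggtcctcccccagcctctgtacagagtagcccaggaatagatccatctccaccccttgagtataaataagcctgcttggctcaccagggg
Itih3, chr14:30923588-30923837, minus strand: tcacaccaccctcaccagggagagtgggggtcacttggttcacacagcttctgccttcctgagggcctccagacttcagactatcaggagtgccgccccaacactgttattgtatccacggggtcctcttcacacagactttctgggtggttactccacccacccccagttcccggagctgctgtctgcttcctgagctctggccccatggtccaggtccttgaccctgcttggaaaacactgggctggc
Htra1, chr7:130935953-130936202, plus strand: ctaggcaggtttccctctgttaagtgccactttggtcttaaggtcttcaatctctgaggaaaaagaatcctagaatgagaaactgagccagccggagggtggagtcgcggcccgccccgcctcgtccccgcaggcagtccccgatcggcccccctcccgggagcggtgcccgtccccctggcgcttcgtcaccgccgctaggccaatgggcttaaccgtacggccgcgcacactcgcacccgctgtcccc
Slc7a10, chr7:35186135-35186384, plus strand: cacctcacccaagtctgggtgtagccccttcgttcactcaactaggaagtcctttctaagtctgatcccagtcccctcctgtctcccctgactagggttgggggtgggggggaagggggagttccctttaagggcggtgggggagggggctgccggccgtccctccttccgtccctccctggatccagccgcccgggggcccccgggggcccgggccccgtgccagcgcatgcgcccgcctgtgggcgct
Ntsr2, chr12:16653220-16653469, plus strand: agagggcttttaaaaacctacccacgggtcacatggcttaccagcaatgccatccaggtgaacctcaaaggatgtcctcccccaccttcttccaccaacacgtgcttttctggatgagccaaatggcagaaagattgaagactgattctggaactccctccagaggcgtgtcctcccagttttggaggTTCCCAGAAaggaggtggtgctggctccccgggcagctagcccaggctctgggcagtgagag
A STAT match stood in the windows of Agt and Ntsr2, on both sides of control, and in none of the other 3. The 27 genes have 32 windows, and 6 of these held it, those of Acsbg1, Agt, Aldoc, Ntsr2, Pla2g7 and Slc1a3, where 7.02% of all 32851 windows of this length did. The glucocorticoid receptor motif, GNACA and TGTNC spaced by 3 bases, was in 0 of the 32, against 0.387% of all windows. The E-box CANNTG was in 18 of the 32, against 66.2% of all windows. A match describes the letters and is not a site of binding.

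Among the secreted and matrix proteins, 4 of 9 genes had all 3 tumour-bearing arrays above the control array and 2 had all 3 below. Over all 33 astrocyte genes the counts were 8 above and 12 below, where 33.2% and 22.5% of all genes lay above and below (33.4% and 27.3% of the genes past the filter). The 3 tumour-bearing arrays share the control array, so an array that happened to be low or high there would place a gene on one side in all of them.

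Agt encodes angiotensinogen, the precursor of angiotensin peptides. It stood at 11.37 log2 in control, 11.64 at 0.5M, 11.63 at 1M and 11.94 at 2M. All 3 tumour-bearing arrays were above control, the 0.5M and 1M pools nearly alike and the 2M animal the highest. The difference was 0.37 ± 0.17 log2 (SD over the 3 tumour-bearing arrays), with an adjusted p of 0.437 in limma, and 0.57 log2 or 1.49-fold at 2M. Agt was the 1 member at least 0.5 log2 above control at 2M, where 1.78% of all genes were, and 0 members were so at 0.5M and 1M (backgrounds 0.692% and 3.21%). Its slope was 0.26 ± 0.07 log2 per 1000000 cells (SE), with a limma unadjusted p of 0.0045 and an adjusted p of 0.631.

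Itih3 encodes a heavy chain of the inter-alpha-trypsin inhibitors, which bind hyaluronan. Its values were 10.41 log2 in control, 10.82 at 0.5M, 10.73 at 1M and 10.84 at 2M. The tumour-bearing arrays lay within 0.11 log2 of each other and above control. Their mean difference was 0.38 ± 0.05 log2 (SD), with a limma unadjusted p of 0.0057, the lowest among the members, and an adjusted p of 0.375. Htra1, a secreted serine protease, stood at 9.24 log2 in control, 9.56 at 0.5M, 9.59 at 1M and 9.72 at 2M. It was higher at each step of cell number, at 0.39 ± 0.08 log2 over control on average (limma adjusted p = 0.375). Gpc5, a glypican, differed by 0.20, 0.20 and 0.17 log2 in the 0.5M, 1M and 2M arrays, almost the same in each (limma adjusted p = 0.482).

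Mfge8 encodes lactadherin, a bridge between dying material and phagocytes. It stood at 9.71 log2 in control, 9.64 at 0.5M, 9.80 at 1M and 9.29 at 2M. The pools lay around the control and the 2M animal alone was apart, by -0.42 log2. Hapln1, which links proteoglycans to hyaluronan, had 6.18 log2 in control, 5.63 at 0.5M, 5.98 at 1M and 5.86 at 2M, all low values. It was the 1 member at least 0.5 log2 below control at 0.5M, against a background of 0.697%. Clu, Cst3 and Sparcl1, which encode the abundant secreted proteins clusterin, cystatin C and hevin, differed by at most 0.07 log2 from control in any array.

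**Figure D1:**
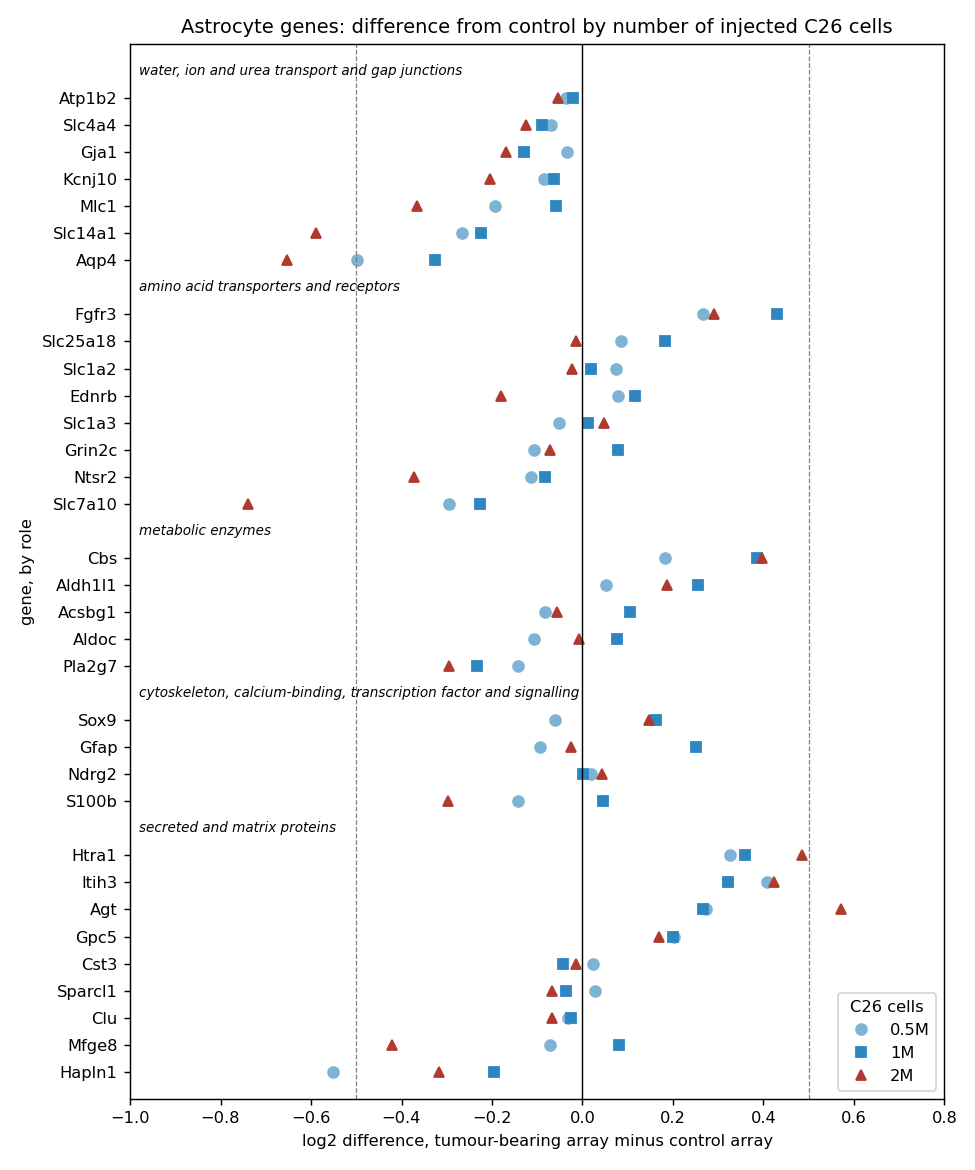
Difference of each of the 33 astrocyte genes from the control array (x axis, log2) at 0.5M, 1M and 2M C26 cells (1 point per array), grouped by role, with dashed lines at 0.5 log2. All points of the 7 transport and gap junction genes lie left of 0. Agt, Htra1, Itih3, Fgfr3, Cbs, Gpc5, Aldh1l1 and Ndrg2 (by at most 0.04) lie right of it in all 3 arrays.

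The genes of water, ion and urea transport and of gap junctions were below control in all 3 tumour-bearing arrays in 7 of 7 cases. Of all genes 22.5% were, and of those past the filter 27.3%. The lists were chosen with earlier results of these data known, so this count is a description only. The median difference of the 7 genes was -0.09 log2 at 0.5M, -0.09 at 1M and -0.21 at 2M, beside -0.0066, 0.07 and 0.03 over all genes. The summed linear signal of the 7 genes was 0.929, 0.938 and 0.871 times that of control at 0.5M, 1M and 2M. In limma 0 of 7 passed, with 1 (Aqp4) at an unadjusted p under 0.05 in the tumour comparison and 2 (Aqp4 and Slc14a1) in the trend.

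Aqp4 encodes aquaporin-4, the water channel of astrocyte end-feet. It stood at 9.81 log2 in control, 9.32 at 0.5M, 9.49 at 1M and 9.16 at 2M. Every tumour-bearing array was below control, the 2M animal the most. The mean difference was -0.49 ± 0.16 log2 (SD), with a limma unadjusted p of 0.0101 and an adjusted p of 0.375. At 0.5M the difference was -0.4994 log2, just short of the size counted, and at 2M it was -0.65 log2, 1.57-fold lower.

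Slc14a1, a urea transporter gene, had 9.77 log2 in control, 9.50 at 0.5M, 9.54 at 1M and 9.18 at 2M. The pools were alike and the 2M animal was 0.32 log2 or more below both. Its mean difference was -0.36 ± 0.20 log2 (limma adjusted p = 0.465) and its slope -0.27 ± 0.07 log2 per 1000000 cells (SE, limma unadjusted p = 0.0044, adjusted p = 0.631). Mlc1, a membrane protein of end-feet, differed by -0.19, -0.06 and -0.37 log2 in the 0.5M, 1M and 2M arrays.

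Gja1 encodes connexin 43, the main gap junction protein of astrocytes. Its values were 10.72 log2 in control, 10.69 at 0.5M, 10.59 at 1M and 10.55 at 2M. They were lower at each step, by little, and the mean difference of -0.11 ± 0.07 log2 had an adjusted p of 0.699 in limma. Kcnj10, the inwardly rectifying potassium channel Kir4.1, differed by -0.09, -0.06 and -0.21 log2. Slc4a4, a sodium bicarbonate cotransporter, and Atp1b2, a beta subunit of the sodium pump, were within 0.13 log2 of control in each array.

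Amino acid transporters and receptors included both the member furthest from control in a single array, Slc7a10, and the one closest to it on average, Slc1a3. Slc1a2 encodes GLT-1, the main glutamate transporter of the brain, and stood at 11.62 log2 in control, 11.69 at 0.5M, 11.64 at 1M and 11.59 at 2M. Slc1a3, which encodes the glutamate transporter GLAST, had 11.63 log2 in control, 11.58 at 0.5M, 11.65 at 1M and 11.68 at 2M. For both genes control lay inside the range of the tumour-bearing arrays. Their mean differences were 0.02 ± 0.05 and 0.0025 ± 0.05 log2 (SD), with limma standard errors of 0.09 each and adjusted p-values of 0.945 and 0.995.

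Slc7a10 encodes Asc-1, an exchanger of small neutral amino acids such as glycine and D-serine. It had 10.03 log2 in control, 9.73 at 0.5M, 9.80 at 1M and 9.29 at 2M. The 2M animal stood 0.74 log2 below control, a 1.67-fold difference, and the pools 0.29 and 0.23 log2 below. With Aqp4 and Slc14a1 it made 3 members at least 0.5 log2 below control at 2M, 9.09% of 33, where 1.23% of all genes and 1.25% of those past the filter were so low. At 1M there were 0 such members, against 1.59% of all genes. Its slope was -0.34 ± 0.07 log2 per 1000000 cells (SE), with an unadjusted p of 0.0018 and an adjusted p of 0.502 in limma. Without the 1M array that adjusted p was 0.0311 at a slope of -0.35, in a fit with 1 residual degree of freedom in which 58 genes passed.

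Fgfr3, a fibroblast growth factor receptor of astrocytes and their precursors, stood at 9.48 log2 in control, 9.74 at 0.5M, 9.91 at 1M and 9.77 at 2M. The tumour-bearing arrays were all above control, the 1M pool the highest. The mean difference was 0.33 ± 0.09 log2 (SD, limma unadjusted p = 0.0184, adjusted p = 0.383). Ntsr2, a neurotensin receptor, had 10.61 log2 in control, 10.49 at 0.5M, 10.52 at 1M and 10.23 at 2M. It was close to control in the pools and 0.37 log2 lower in the 2M animal, with a limma adjusted p of 0.621. Ednrb, the endothelin B receptor gene, Grin2c, an NMDA receptor subunit gene, and Slc25a18, a mitochondrial glutamate carrier gene, differed by -0.18 to 0.18 log2 and in no common direction.

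Among the 5 metabolic enzymes, Cbs encodes cystathionine beta-synthase, which makes cystathionine from homocysteine. It stood at 8.25 log2 in control, 8.43 at 0.5M, 8.64 at 1M and 8.65 at 2M. Each array was higher than the one with fewer cells, the last step being 0.01 log2. The mean difference was 0.32 ± 0.12 log2 (SD, limma unadjusted p = 0.0309, adjusted p = 0.42). Aldh1l1, a folate enzyme widely used as an astrocyte marker, had 8.19 log2 in control, 8.24 at 0.5M, 8.45 at 1M and 8.38 at 2M. All tumour-bearing arrays were above control, at 0.16 ± 0.10 log2, and the limma adjusted p was 0.606.

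Pla2g7 encodes an enzyme that degrades platelet-activating factor. It differed by -0.14, -0.23 and -0.29 log2 in the 0.5M, 1M and 2M arrays, lower at each step (limma adjusted p = 0.478). Aldoc, the brain aldolase gene, and Acsbg1, an acyl-CoA synthetase gene, were within 0.11 log2 of control in each array.

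Gfap, the intermediate filament gene, had 9.17 log2 in control, 9.08 at 0.5M, 9.42 at 1M and 9.15 at 2M. The control lay inside the range of the tumour-bearing arrays and the 1M pool alone was well above it, by 0.25 log2. The mean difference was 0.04 ± 0.18 log2 (SD, limma SE 0.15, adjusted p = 0.932), and without the 1M array it was -0.06. S100b, a calcium-binding protein gene, had 8.99 log2 in control, 8.84 at 0.5M, 9.03 at 1M and 8.69 at 2M. Sox9, an astrocyte transcription factor gene, had 8.97 log2 in control, 8.91 at 0.5M, 9.14 at 1M and 9.12 at 2M. Neither set the tumour-bearing arrays apart from control, with mean differences of -0.13 ± 0.17 and 0.08 ± 0.13 log2 and limma adjusted p-values of 0.763 and 0.823. Ndrg2, a differentiation-associated gene, differed by at most 0.04 log2.

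**Figure D2:**
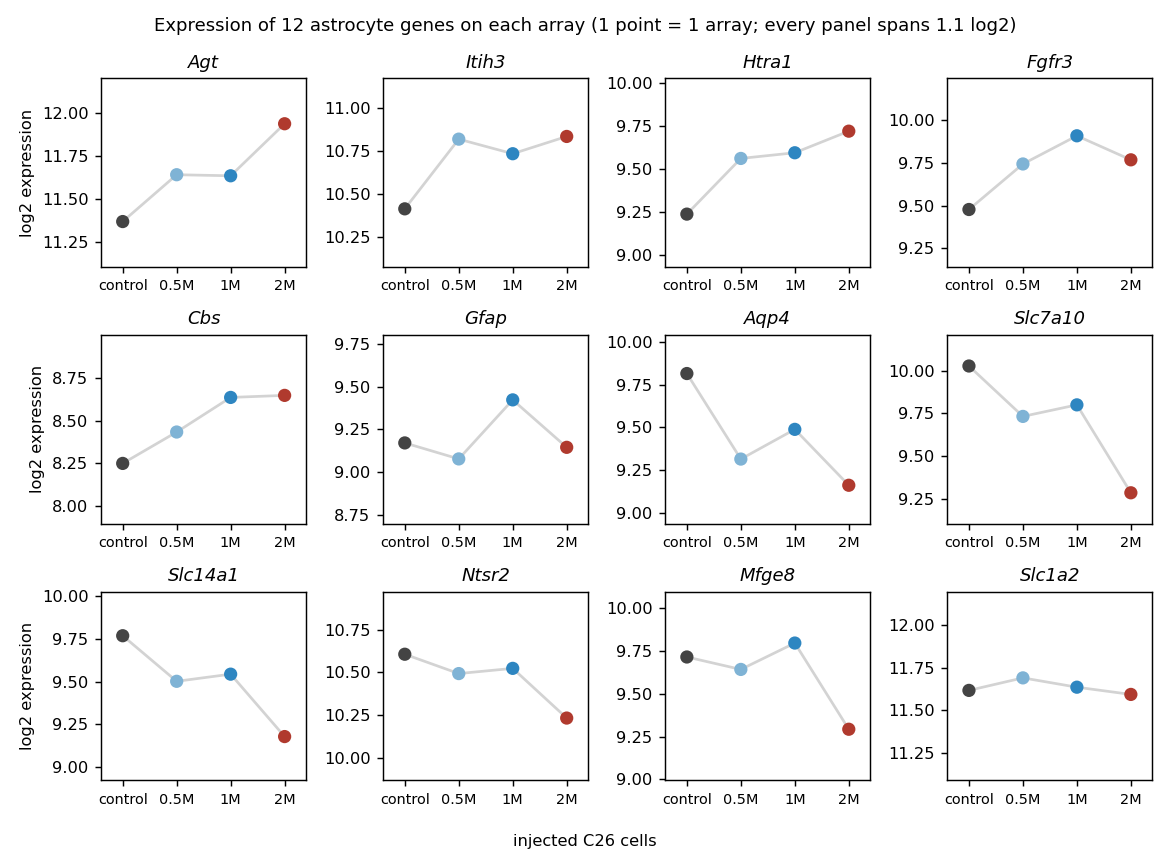
Log2 expression (y axis) of 12 astrocyte genes on the control, 0.5M, 1M and 2M arrays (x axis, 1 point per array, lines join the arrays of a gene), every panel spanning 1.1 log2. Agt, Itih3, Htra1, Fgfr3 and Cbs are lowest in control, Aqp4, Slc7a10, Slc14a1 and Ntsr2 are highest in control and lowest at 2M, and Slc1a2 varies by 0.10 log2.

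In the comparison of the 3 tumour-bearing arrays with the control array, limma called 6 of 11963 genes (0.0502%) and none of the 32 members. At an unadjusted p under 0.05 there were 6 members (18.8%), Agt, Fgfr3, Htra1, Itih3 and Cbs above control and Aqp4 below, where 10.8% of all tested genes reached that level. The lowest adjusted p of a member was 0.375, and it ranged from 0.267 to 0.764 over 8 other settings. The fit has 2 residual degrees of freedom, takes the spread between cell numbers and pool sizes for error and assumes that the lone control array varies like the others.

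For the trend with cell number limma called 0 genes and 0 members. At an unadjusted p under 0.05 there were 8 of 32 members, where 6.52% of all tested genes were. Agt, Htra1 and Cbs had positive slopes, and Aqp4, Slc7a10, Ntsr2, Slc14a1 and Mfge8 negative ones. Without the 2M array 3 members reached that level. The 2M array carries most of the weight, and a step from control also gives a slope.

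**Figure D3:**
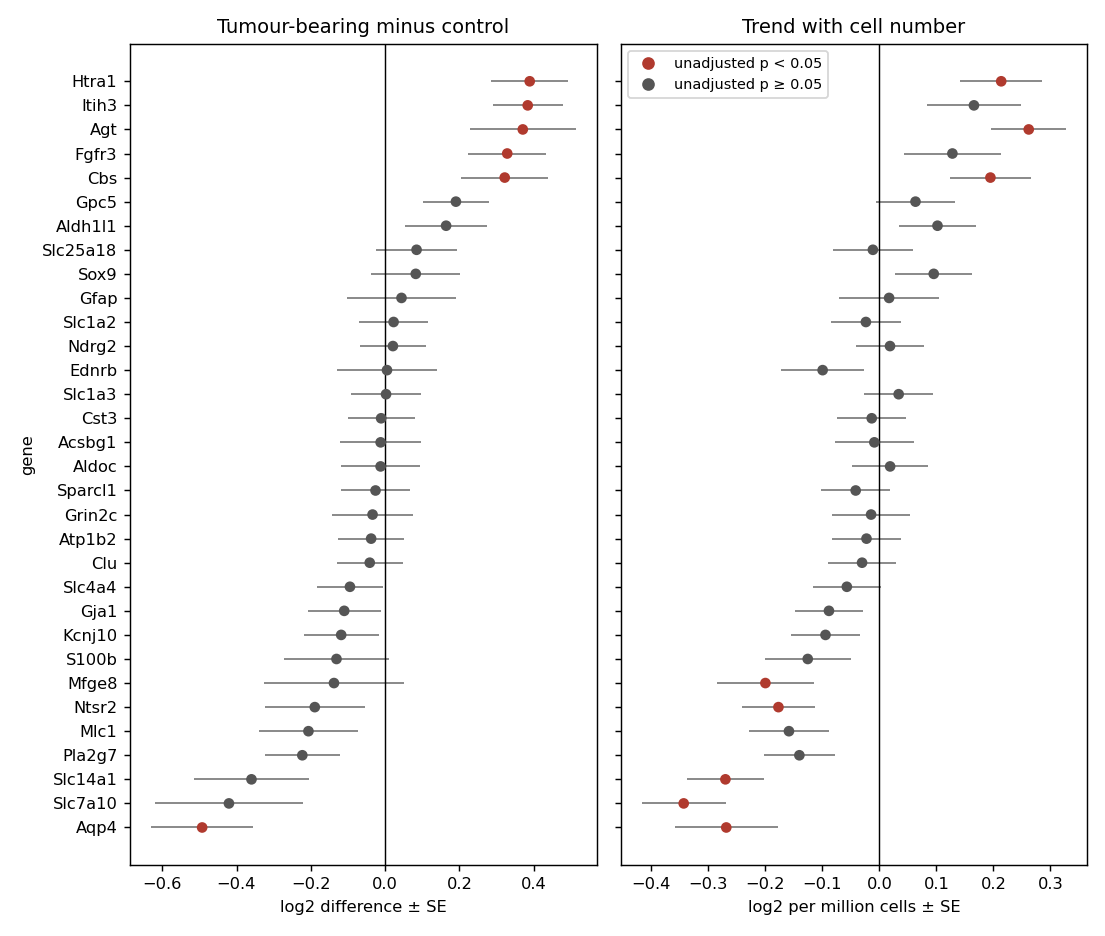
Limma estimates of the 32 tested astrocyte genes with standard errors, for tumour-bearing minus control (left, log2) and for the trend (right, log2 per 1000000 cells). Red points mark an unadjusted p under 0.05 (6 genes on the left, 8 on the right), and 0 genes passed after adjustment.

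The 2M animal had the lowest of the 4 values in 17 of the 33 genes (51.5%). Of all genes 19.8% were lowest there, and of those past the filter 21.8%. Low values at 2M were not particular to these genes. The median difference from control at 2M was -0.30 log2 in a list of oligodendrocyte genes and -0.25 in one of microglia genes. In 36 further astrocyte genes it was -0.04 log2. The 1M pool was lowest in 1 gene, Cst3 (3.03%), against 18.6% of all genes, and the 2M animal was highest in 6 (18.2%), against 20.3%. The median difference of the 33 genes was -0.05, 0.02 and -0.06 log2 in the 0.5M, 1M and 2M arrays, and their summed linear signal was 0.997, 1.01 and 0.982 times that of control. Steady steps with cell number were found for Htra1 and Cbs upward and Gja1, Slc4a4 and Pla2g7 downward, 6.06% and 9.09% of members, against 6.07% and 3.7% of all genes.

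A further 36 astrocyte genes had medians of -0.0068, 0.03 and -0.04 log2 in the 0.5M, 1M and 2M arrays, and a summed linear signal of 0.959, 0.988 and 0.927 times that of control. Of them 13 were above and 12 below control in all 3 tumour-bearing arrays, beside the 33.2% and 22.5% of all genes. In limma 0 passed in either fit, and 6 of the 36 reached an unadjusted p under 0.05 in the tumour comparison, beside 10.8% of all tested genes. Fabp7, which binds fatty acids in astrocytes and tanycytes, was furthest from control at -0.70, -0.72 and -1.78 log2, from 12.30 in the control array. Lcat, the cholesterol-esterifying enzyme gene, differed by -0.55, -0.23 and -0.63 log2. Prodh, proline dehydrogenase, and Dio2, the deiodinase that activates thyroxine, were 0.41 ± 0.09 and 0.36 ± 0.10 log2 above control (limma adjusted p = 0.375 for each).

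Genes reported for reactive astrocytes were mixed. In the pan-reactive list, which holds Gfap, 5 of 13 genes were above and 1 below control in all 3 arrays. Of all genes 33.2% were above and 22.5% below. The medians of the list were 0.01, 0.11 and 0.24 log2. Lcn2 and Osmr, at 2.51 ± 0.29 and 1.06 ± 0.04 log2, passed limma (adjusted p = 0.0327 each) and rose, although Lcn2, at 6.02 log2 in control, was under the filter value there and was tested because of its level in tumour-bearing mice. With no filter neither passed, at limma adjusted p-values of 0.13 and 0.147, and without the 0.5M, 1M or 2M array Osmr did not pass (limma adjusted p = 0.0513, 0.103 and 0.0581). Both are also expressed by other cells, such as endothelium. Hspb1, a small heat shock protein gene, differed by 0.34, 0.40 and 1.02 log2 in the 0.5M, 1M and 2M arrays, and Timp1, a protease inhibitor gene below the filter value, by 0.43, 0.44 and 0.80. Lcn2, Osmr, Hspb1 and Timp1 were picked as the largest mean differences of the list. Others were flat or lower. S1pr3, the 1 gene below in all 3, differed by -0.13, -0.10 and -0.26 log2. Vim differed by -0.0048, 0.01 and -0.07, and Cxcl10, below the filter value, by -0.53, 0.01 and -0.35.

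Of the list called A1, for a state induced by inflammation, 7 of 12 genes were measured, with 3 above and 3 below control in all 3 arrays and medians of 0.08, -0.0017 and 0.38 log2. Fbln5, a matrix protein gene, was 0.79 ± 0.34 log2 above control, Amigo2, an adhesion protein gene, 0.37 ± 0.06 and Fkbp5 0.37 ± 0.16. Serping1, the complement C1 inhibitor gene, differed by -0.36 ± 0.26. In the list called A2, for a state after ischaemia, 3 of 12 were above and 4 below, with medians of -0.16, 0.05 and -0.02 log2. Beside the counts of both lists, 33.2% of all genes were above and 22.5% below. Tm4sf1, a membrane protein gene, was -0.40 ± 0.08 log2 from control. The next 3 by mean difference were all below the filter value. Cd109 and Slc10a6 were 0.32 ± 0.02 and 0.23 ± 0.07 log2 above control, and B3gnt5 differed by -0.17 ± 0.18. Of the A1 and A2 lists 0 genes passed limma in either fit. In the tumour comparison 3 and 1 of the 5 tested in each list had an unadjusted p under 0.05, beside 10.8% of all tested genes.

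**Figure D4:**
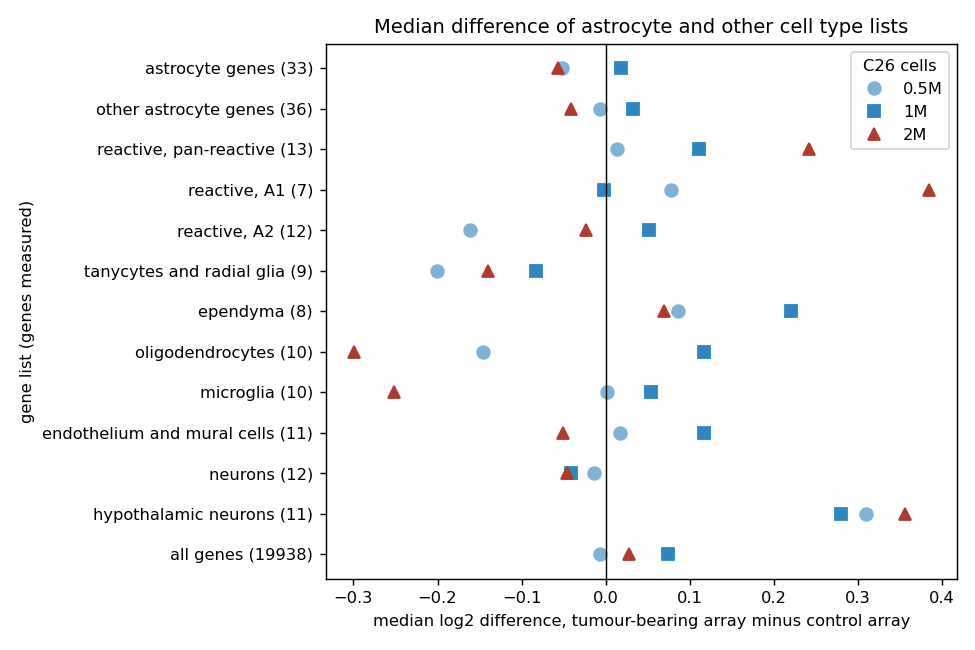
Median log2 difference from control (x axis) at 0.5M, 1M and 2M for the astrocyte genes and for other lists (y axis, genes measured in brackets). The 33 astrocyte genes lie between -0.06 and 0.02, and the oligodendrocyte and microglia lists at 2M lie at -0.30 and -0.25.

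The tissue was checked by markers of other cells and of nearby regions. Of 11 measured genes of hypothalamic neurons 10 passed the filter, and their median difference from control was 0.31, 0.28 and 0.36 log2 in the arrays of 0.5M, 1M and 2M. At 2M, where many astrocyte genes were lowest, the oligodendrocyte median was -0.30 log2 (10 genes, summed signal 0.87 times control), that of microglia -0.25 (10 genes, 0.961), that of tanycytes and radial glia -0.14 (9 genes, 0.559, of which Fabp7 is a large part) and that of endothelium and mural cells -0.05 (11 genes, 1.01). General neuronal genes stood at -0.05 log2 (12 genes, 0.989). The ependyma list was at 0.07 and choroid plexus at -0.08. Midbrain and hindbrain markers differed by a median of -0.28, -0.37 and -0.35 log2 at the 3 cell numbers. They were 6 genes, 2 past the filter, with a summed signal 0.849, 0.64 and 0.836 times control. Striatal markers differed by 0.46, 0.12 and 0.14, thalamic ones by -0.13, 0.05 and 0.04 and those of cortex and hippocampus by -0.11, 0.10 and -0.05. Anterior pituitary genes, 3 of 6 past the filter, had medians of 0.33, 0.38 and 0.36 log2, with Gh 4.68 log2 above control at 0.5M. The summed pituitary signal was 3.85, 1.17 and 0.977 times control. Blood genes, 2 of 5 past the filter, had medians of 0.25, 0.32 and 0.45 log2. The part of these tissues in the differences of astrocyte genes was not tested.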

How the data were processed

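Total RNA of mouse hypothalamus was hybridized to 4 Affymetrix arrays. The authors deposited log2 values, 1 per probe set and array, which the submitters' processing notes credit to RMA, with no version or software stated. RMA aligns the distributions of the arrays, so a change common to all transcripts is lost. Of 35556 probe sets, 21789 carried 1 gene symbol in the platform annotation, 1621 several and 12146 none. They gave 19938 genes, each stood for by its probe set of highest mean.

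Differences are those of log2 values against the control array. Counts by size (0.5 log2) and medians used all measured members. Limma 3.58.1 in R 4.3.3 (lmFit, eBayes, Benjamini-Hochberg) was run on the 11963 genes past the filter, for tumour-bearing arrays against control and for a slope on cell number. The tumour comparison was also checked on simulated arrays. In these the control varied like the others, so that assumption was not tested. The changes put in were of 0.5 log2 or more, above the mean difference of every member. Whether changes of the size seen here could be called was therefore not checked. The number of arrays limits the precision. Full values are given for 8 fixed markers (Gfap, Aqp4, Aldh1l1, Slc1a2, Slc1a3, Gja1, S100b and Sox9), for members that reached 0.5 log2 in some array or an unadjusted p under 0.05, and for up to 4 genes of largest mean difference in each other list, fewer where a list is summarised by its median. The members and lists were chosen with earlier results of these data known. Alternatives were cyclic loess, averaged probe sets, no filter or the 60th percentile, a size of 0.3 log2, eBayes with a variance trend and robust estimation, and leaving out each tumour-bearing array. Other values and plots were made in Python 3.11.15 (numpy 2.4.6, pandas 2.3.3, matplotlib 3.10.9). Promoter sequences are RefSeq's.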

Additional observations from a re-analysis of the deposited data

How the results depend on the processing

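No paired analysis was possible because each group is 1 array and the labels give no replicate numbers. In the tumour comparison 0 members were called under each of 8 alternatives. In the trend, leaving out 1 tumour-bearing array gave 0 to 1 members (Slc7a10, without 1M) and other alternatives 0. Over all genes, the tumour comparison called 1 gene with no filter, 2 with the 60th percentile filter and 3 without 1M, against 6, and the trend 38 without 0.5M, 58 without 1M and 2 with the variance trend and robust estimation, against 0. With 0.3 log2 as the size, 2, 4 and 4 of 33 members were above control at 0.5M, 1M and 2M (4.09%, 15.3% and 9.05% of all genes), and 2, 1 and 7 below (4.86%, 5.9% and 5.71% of all genes). With cyclic loess 2 members were at least 0.5 log2 below control at 0.5M (Aqp4 joining Hapln1), with the 60th percentile filter 0 were, and the median of members at 1M was 0.068 log2, against 0.019, with cyclic loess. Of 18 genes with full values, 14 kept their direction under every alternative run. Much of this was fixed in advance. The filters, the eBayes settings and the averaging of probe sets left the estimate of a member unchanged, and Hapln1 was run only with no filter. Leaving out 1 tumour-bearing array cannot change the sign of a gene whose 3 arrays all lie on one side of control. On leaving out 1 tumour-bearing array in turn, Gfap ranged from -0.060 (without 1M) to 0.11, Slc1a2 from -0.0024 (without 0.5M) to 0.046, Slc1a3 from -0.020 (without 2M; -0.0024 without 1M) to 0.030 and Mfge8 from -0.25 to 0.0044 (without 2M), so that these 4 changed sign. The causes were not tested. With 1 array a group, small differences cannot be told from variation between pools or animals.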
